A study of Mus musculus with 6 samples.

Results

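The tricarboxylic acid (TCA) cycle and the enzymes that feed it with pyruvate and glutamate were examined in mouse bone marrow LSK cells with and without HDAC6. The 33 genes were chosen by symbol from a list of cycle enzymes, pyruvate and glutamate enzymes, their regulators and their carriers, with the isocitrate dehydrogenases left out. All 33 were found among the 16022 genes of the deposited table and all 33 passed the filter on low counts, which left 12875 genes. LSK cells are the lineage-negative, Sca-1-high, c-kit-positive fraction of the marrow, in which the stem cells of the blood and their first descendants are found. RNA was sequenced from 3 wild-type (WT) samples and 3 HDAC6 knockout samples. HDAC6 is a deacetylase that acts mainly in the cytoplasm. The sources used here do not state the allele, the strain, the age or whether the samples came from separate animals. The p-values therefore rest on a spread between samples that may be technical. The series concerns deacetylation of the enzyme IDH1, and the tables hold RNA levels, not protein or acetylation.

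The TCA cycle oxidises acetyl-CoA in the mitochondrial matrix and passes electrons to the respiratory chain. Pyruvate enters through a carrier and is turned into acetyl-CoA by the pyruvate dehydrogenase complex, which kinases switch off and phosphatases switch on. Glutamate and the malate-aspartate shuttle link the cycle to amino acids and to cytosolic NADH, and citrate leaves the mitochondrion to supply lipid synthesis. Quiescent hematopoietic stem cells are known for low mitochondrial activity, held back in part by pyruvate dehydrogenase kinases, and their progeny for a higher one.

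Total counts ran from 25993971 to 28743672 per library. The targeted gene checked the labels: Hdac6 stood at 68.0, 58.2 and 54.3 CPM (read counts scaled to the library total, normalised by TMM) in WT replicates 1 to 3 and at 9.62, 7.69 and 11.3 CPM in the knockout. Its log2 fold change was -2.66 (SE 0.19, edgeR adjusted p = 0.000594). The gate markers Kit and Ly6a, the Sca-1 gene, were present in every library, and their groups did not overlap. Kit measured 1127 to 1367 CPM in WT and 725 to 1082 CPM in the knockout, and Ly6a 60.3 to 68.7 CPM in WT and 82.1 to 119 CPM in the knockout. In bulk samples, fewer cells of a type and less RNA per cell cannot be told apart.

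No enzyme gene was called: 0 of 33 passed an adjusted p of 0.05 by edgeR's quasi-likelihood test. Of all tested genes, 0.00777% passed in either direction, which was 1 gene, Hdac6 itself. By DESeq2, 0 of 33 passed, where 0.897% of the 13373 genes in that test passed above WT, 0.456% below and 1.35% in either direction. As a set, the genes lay slightly above WT. The log2 fold change was positive for 28 of 33 genes with a median of 0.20, against 49.5% of all tested genes and a median of -0.003. At an unadjusted p under 0.05 stood 8 genes above WT and 0 below, where 7.24% of tested genes lay above and 6.15% below. The groups did not overlap for 7 genes above WT and 0 below, where the background was 8.86% above and 9.7% below. Those 7 were Cs, Dlst, Dld, Suclg1, Fh1, Dlat and Pdp1. Scaling by library size alone gave 24 of 33 genes above WT, where 39.7% of all tested genes were above, and the members' median minus that of all genes was 0.20 under both scalings.

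Knockout replicates 1 and 2 stood farther above WT than knockout replicate 3. The median log2 distance of the 33 genes from their WT mean was 0.31 in knockout replicate 1, 0.23 in replicate 2 and 0.04 in replicate 3, against 0.07, -0.02 and -0.008 in WT replicates 1 to 3. Knockout replicate 3 thus lay inside the WT range. It was the lowest knockout library for 25 of the 33 genes, where it was the lowest for 36.7% of all tested genes. Knockout replicate 1 held the highest value for 23 of the 33 genes, where it held the highest for 22.8% of all tested genes. Without it the median log2 fold change was 0.09 and 1 gene stood above WT at an unadjusted p under 0.05, where 4.26% of all tested genes did. Without knockout replicate 3 the median was 0.30 and the count 13, against 10.9% of all tested genes. The count was 1 without knockout replicate 2 (against 3.55%), 2 without WT replicate 2 (5.13%), 4 without WT replicate 1 (5.63%) and 4 without WT replicate 3 (8.66%).

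Markers of dividing cells were ordered in the knockout as the enzyme genes were, but not in WT. Their summed level of 12 genes was 4548, 4074 and 3537 CPM in knockout replicates 1 to 3, with 11 of 12 above the WT mean. In WT replicates 1 to 3 it was 3225, 3118 and 3403 CPM, highest in replicate 3, where the enzyme median was highest in replicate 1. Knockout replicate 3 lay above every WT library for this sum, but inside the WT range for the enzyme genes. The 11 genes of the LSK gate and of stem and progenitor cells summed to 3500 to 4689 CPM in the knockout and 4556 to 5155 CPM in WT, with 3 of 11 above the WT mean. Granulocyte-monocyte progenitor genes summed to 17950 CPM in knockout replicate 2 and to 5145 to 7971 CPM in the other libraries, with 8 of 8 above the WT mean. The neutrophil list summed to 18.5 to 37.3 CPM in the knockout and 43.2 to 109 CPM in WT, with 2 of 9 above the WT mean. T and natural killer cell genes summed to 76.3 to 136 CPM and 84.9 to 92.9 CPM in the same order, with 9 of 12 above the WT mean. Within that list the T cell receptor gene Cd3e reached at most 0.151 CPM, and other genes went opposite ways. Lck stood at 58.45 to 76.7 CPM in WT and at 43.9 to 57.4 CPM in the knockout. Il2rb stood at 2.87 to 5.76 CPM in WT and at 8.78 to 33.3 CPM in the knockout. The sum of the list therefore hides these shifts. Monocyte and macrophage genes summed to 137 to 622 CPM in the knockout and 121 to 299.6 CPM in WT, with 5 of 6 above the WT mean. B cell genes (61.9 to 84.3 and 54.1 to 74.8 CPM, 3 of 6 above) and erythroid genes (29.2 to 67.9 and 28.0 to 53.9 CPM, 5 of 7 above) overlapped between the groups in their sums. The part of these cells in the result was not tested.

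**Figure D1:**
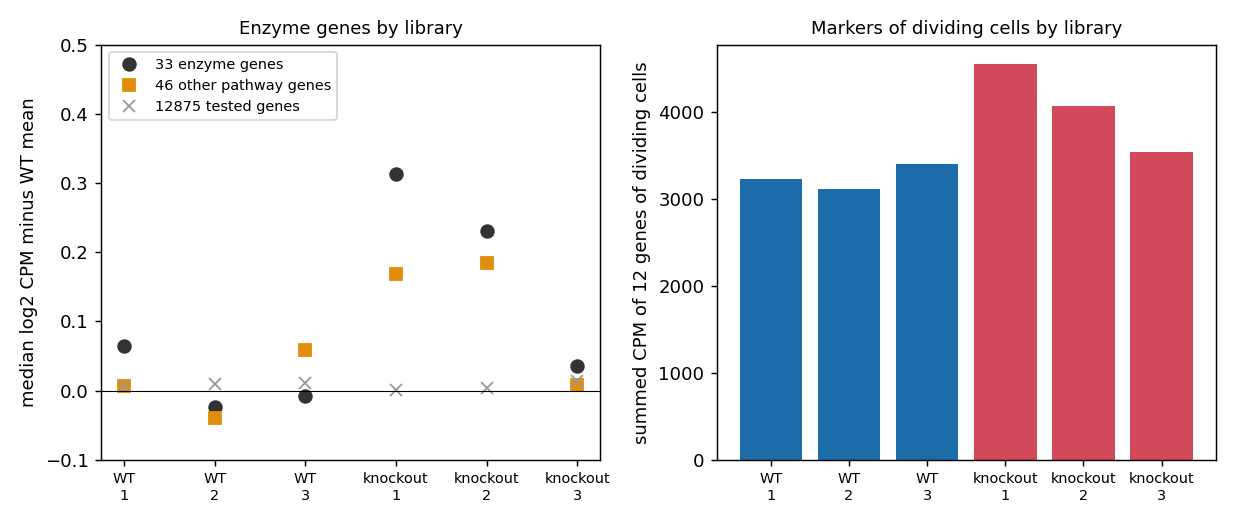
Left, the median over genes of the log2 CPM minus the WT mean, per library, for the 33 enzyme genes, 46 other pathway genes and all 12875 tested genes. Right, the summed CPM of 12 genes of dividing cells. Knockout replicates 1 and 2 stand highest on the right and, on the left, for the enzyme and other pathway genes, while all tested genes stay between 0.001 and 0.014. Knockout replicate 3 lies within the WT range for the enzyme genes at 0.04.

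Per length, on the deposited FPKM scale, malate dehydrogenase and succinate dehydrogenase genes had the highest levels among the 33. Mdh2, mitochondrial malate dehydrogenase, led with 501, 494 and 476 FPKM in WT and 603, 564 and 435 FPKM in the knockout. The subunits of succinate dehydrogenase, the enzyme that is also respiratory complex II, followed together with Mdh1. In WT, Sdhb stood at 271 ± 11.2, Sdha at 265 ± 23.6, Mdh1 at 229 ± 20.6, Sdhc at 213 ± 8.45 and Sdhd at 213 ± 19.6 FPKM (SD, n = 3). Neighbours in this order, such as Sdhb and Sdha or Sdhc and Sdhd, did not differ beyond their spread. Sdhb, Sdhc, Sdhd and Mdh1 all lay between 190.1 and 324 FPKM in every library. At the low end, Pdp1 stood at 7.06 to 8.92 FPKM, Pcx, pyruvate carboxylase, at 1.88 to 4.28 FPKM, and Me1, the cytosolic malic enzyme, at 0.15 to 0.68 FPKM from 12 to 53 counts per library. Every other gene averaged at least 20.9 FPKM over all libraries, the level of Aco1.

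**Figure D2:**
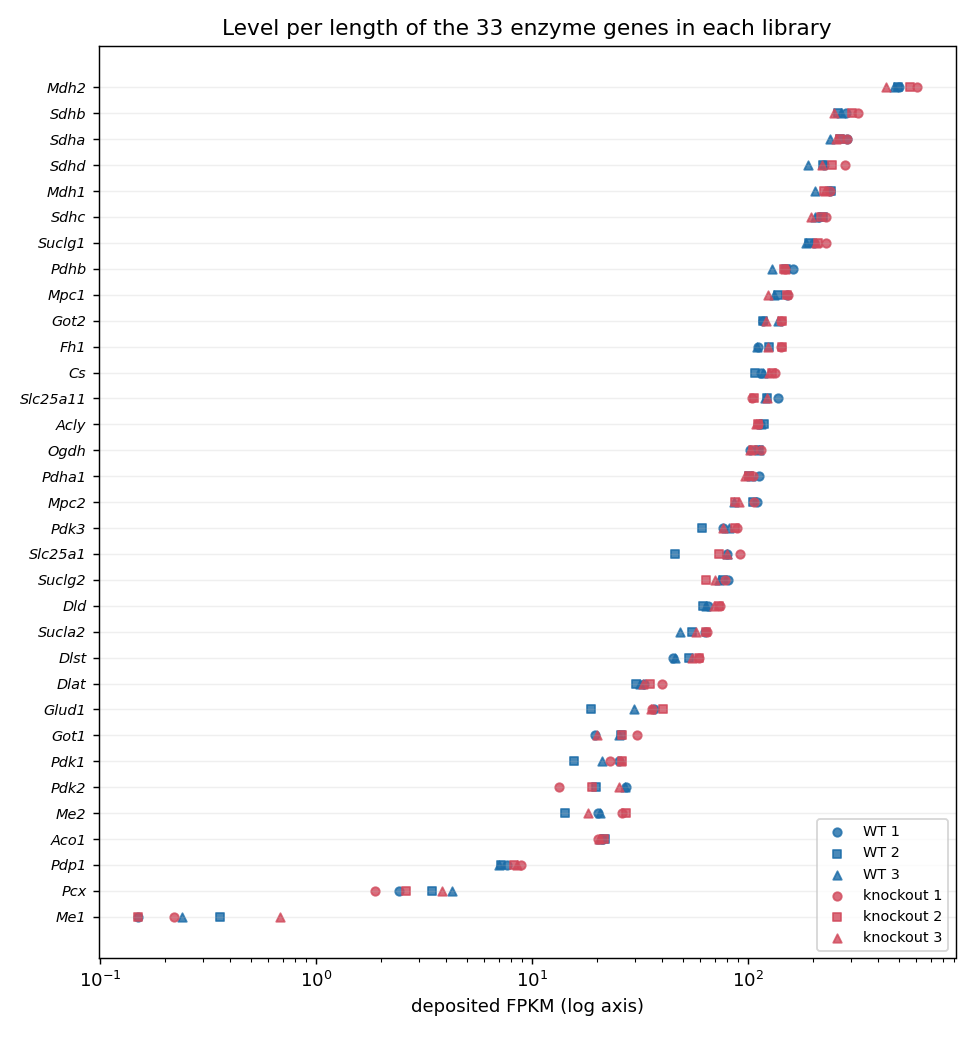
Deposited FPKM of each enzyme gene on a log axis, 1 point per library, with WT in blue and knockout in red and genes ordered by their mean. Mdh2 stands at the top at 435 to 603 FPKM and Me1 at the bottom at 0.15 to 0.68 FPKM, and the groups overlap for most genes.

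Of the 8 genes from citrate synthesis through succinyl-CoA ligase, the cytosolic aconitase Aco1 included, 7 had a positive log2 fold change (median 0.23). Dlst, the core succinyltransferase of the 2-oxoglutarate dehydrogenase complex, measured 111, 132 and 116 CPM in WT and 158, 156.5 and 139 CPM in the knockout. The knockout values all lay above WT. Its log2 fold change was 0.34 (SE 0.11, adjusted p = 0.307), and Dlst had the smallest p of the 33. Cs, citrate synthase, which starts the cycle, measured 303, 282 and 315 CPM in WT and 381, 365 and 337 CPM in the knockout. Its log2 fold change was 0.27 (SE 0.10, adjusted p = 0.322), again with no overlap. Dld, the lipoamide dehydrogenase that the pyruvate and 2-oxoglutarate complexes share, measured 131, 123 and 130.3 CPM in WT and 159.7, 157 and 142 CPM in the knockout. Its groups did not overlap either, and the log2 fold change was 0.25 (SE 0.10, adjusted p = 0.345).

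Succinyl-CoA ligase joins a common alpha subunit, Suclg1, to an ATP-forming (Sucla2) or a GTP-forming (Suclg2) beta subunit. Suclg1 measured 232, 216 and 216.5 CPM in WT and 283, 257 and 241 CPM in the knockout, without overlap (log2 fold change 0.23, SE 0.10, adjusted p = 0.367). Sucla2 measured 117, 101 and 90.5 CPM in WT and 128, 126 and 108 CPM in the knockout (0.23, SE 0.13), and the groups overlapped. Suclg2 measured 195, 180.2 and 175 CPM in WT and 201, 162 and 170.5 CPM in the knockout (-0.04, SE 0.11), and the groups overlapped. Unlike those of Suclg1 and Sucla2, its log2 fold change was negative, but smaller than its standard error. Ogdh, the first enzyme of the 2-oxoglutarate complex, and Aco1, the cytosolic aconitase that also acts as an iron-regulatory protein, lay close to WT at 0.06 and 0.05. Scaling by library size alone put both below WT, at -0.02 each.

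All 6 genes from succinate to oxaloacetate had a positive log2 fold change (median 0.19). Fh1, fumarase, measured 154, 171 and 154 CPM in WT and 209.9, 210.2 and 174 CPM in the knockout. Its log2 fold change was 0.31 (SE 0.11, adjusted p = 0.315). Knockout replicate 3 exceeded the highest WT library by a narrow margin. The groups overlapped on the FPKM scale, with library size alone and with upper-quartile normalization. Sdhd, a membrane anchor of succinate dehydrogenase, measured 235, 228 and 202 CPM in WT and 315, 271 and 232 CPM in the knockout (0.30, SE 0.13, adjusted p = 0.358). Here knockout replicate 3 fell among the WT values. Mdh2 showed the same split more widely, with 520.5, 505 and 504 CPM in WT and 674, 623.5 and 458.5 CPM in the knockout (0.20, SE 0.14, adjusted p = 0.53). Its lowest value of all was in knockout replicate 3. Sdhb (0.18), Sdha (0.10) and Sdhc (0.08), the iron-sulfur, flavoprotein and other anchor subunits, overlapped between the groups.

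**Figure D3:**
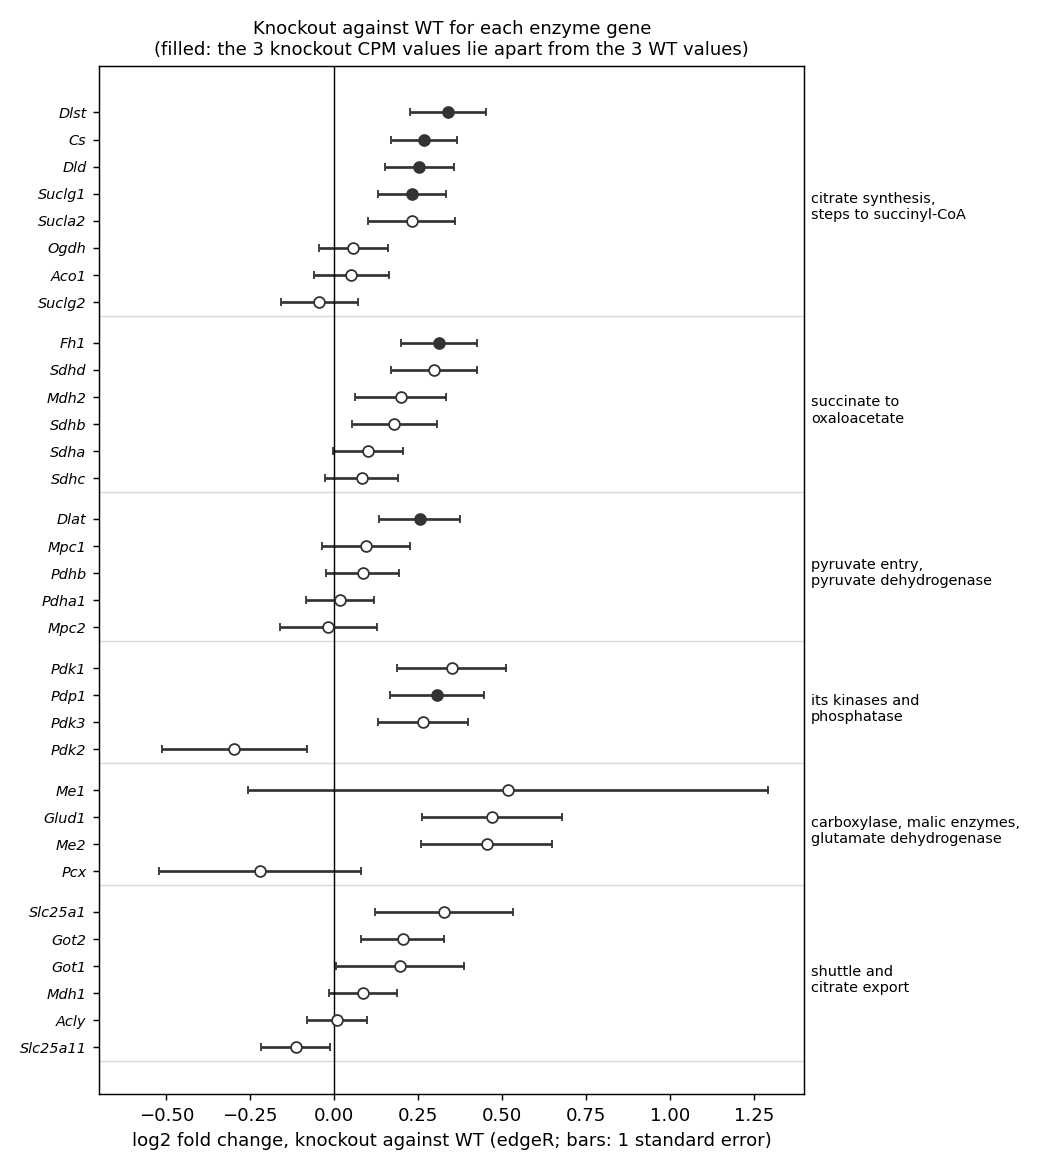
Log2 fold change of each enzyme gene, knockout against WT, with bars of 1 standard error, grouped by role. Filled points mark the 7 genes whose CPM values did not overlap between groups. Most points lie right of 0, between -0.30 and 0.52, and 0 of the 33 genes passed the adjusted threshold.

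At the entry of pyruvate, the values were close to WT (5 genes, median 0.09). Mpc1 and Mpc2, the subunits of the mitochondrial pyruvate carrier, stood at 106.9, 95.7 and 95.4 CPM and at 63.2, 59.3 and 50.9 CPM in WT. In the knockout they stood at 116.5, 113.5 and 88.6 CPM and at 65.9, 52.7 and 52.8 CPM. Their log2 fold changes were 0.10 (SE 0.13) and -0.02 (SE 0.14). Pdha1 and Pdhb, the subunits of the first enzyme of pyruvate dehydrogenase, were at 0.02 and 0.08. Dlat, the acetyltransferase core, measured 122.6, 112 and 119 CPM in WT and 159.6, 139 and 122.8 CPM in the knockout (0.255, SE 0.12, adjusted p = 0.382). The gap between its groups was thus 122.6 to 122.8 CPM and closed when the libraries were scaled in any of the other ways tried.

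The regulators of pyruvate dehydrogenase lay on both sides of WT. Pdk1, Pdk2 and Pdk3 encode kinases that inactivate the complex, and Pdp1 a catalytic subunit of the phosphatase that reactivates it. Pdk1 measured 122, 75.1 and 103 CPM in WT and 120.0, 135 and 127 CPM in the knockout (0.35, SE 0.16, adjusted p = 0.379), and without WT replicate 2, the lowest library, its log2 fold change was 0.18. Pdk3 measured 143, 114 and 154 CPM in WT and 176.5, 171 and 146 CPM in the knockout (0.265, SE 0.13, adjusted p = 0.41). It too was lowest in WT replicate 2, and its log2 fold change was 0.15 without that library. Pdk2 went the other way, with 54.5, 38.9 and 54.5 CPM in WT and 28.75, 40.3 and 51.3 CPM in the knockout (-0.30, SE 0.22, adjusted p = 0.556). It was the lowest log2 fold change of the 33. Pdp1 measured 29.55, 27.6 and 27.8 CPM in WT and 37.3, 34.0 and 33.65 CPM in the knockout, without overlap (0.305, SE 0.14, adjusted p = 0.377).

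Within the 3 kinases, Pdk3 made up most of the transcripts per length in every library. In WT, Pdk3 held 61.9 ± 2.17%, Pdk2 20.8 ± 0.335% and Pdk1 17.3 ± 1.86% of their summed FPKM (SD, n = 3). In the knockout the share of Pdk2 was 10.7%, 14.4% and 19.8% in replicates 1 to 3, each below the lowest WT library at 20.5%. The share of Pdk3 was 71.0%, 65.9% and 60.0% there, and in replicate 3 it lay inside the WT range of 59.4% to 63.3%.

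Glud1, mitochondrial glutamate dehydrogenase, and Me2, a mitochondrial malic enzyme, had large but variable differences. Glud1 measured 104.6, 53.4 and 86.4 CPM in WT and 111, 124 and 103.8 CPM in the knockout (0.47, SE 0.21, adjusted p = 0.369). WT replicate 2 was the low library, and without it the log2 fold change was 0.24. Me2 measured 145, 101 and 151 CPM in WT and 202.5, 209 and 132.5 CPM in the knockout (0.45, SE 0.20, adjusted p = 0.359). Knockout replicate 3 lay among the WT values, and without WT replicate 2 the log2 fold change was 0.30. Me1 had few counts and measured 0.431, 0.99 and 0.681 CPM in WT and 0.661, 0.435 and 1.92 CPM in the knockout (0.52, SE 0.77, adjusted p = 0.785). Without knockout replicate 3, its highest library, the log2 fold change was -0.35. Pcx, which refills oxaloacetate, ran from 9.3 to 16.6 CPM in WT and from 7.75 to 15.0 CPM in the knockout (-0.22, SE 0.30).

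In the malate-aspartate shuttle, the aminotransferase and malate dehydrogenase genes overlapped between the groups. Got1, the cytosolic aminotransferase, measured 35.2, 45.6 and 46.0 CPM in WT and 59.1, 49.8 and 36.3 CPM in the knockout (0.20, SE 0.19). Got2, the mitochondrial one, measured 248, 245 and 294.5 CPM in WT and 325, 323 and 259 CPM in the knockout (0.20, SE 0.12). Both had their lowest knockout value in replicate 3, inside the WT range. Mdh1, the cytosolic malate dehydrogenase, measured 406, 406 and 354 CPM in WT and 437, 409 and 391 CPM in the knockout (0.09, SE 0.10). Slc25a11, the oxoglutarate carrier, lay at -0.11 (SE 0.10), with 189.7 to 215 CPM in WT and 176 to 195 CPM in the knockout.

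For citrate export, Slc25a1, the citrate carrier, measured 113, 64.3 and 115.5 CPM in WT and 141, 111 and 115.5 CPM in the knockout (0.33, SE 0.21, adjusted p = 0.501). Its low library was again WT replicate 2, and without it the log2 fold change was 0.10. Acly, which splits exported citrate into acetyl-CoA, varied little, from 463 to 481 CPM in WT and from 449.9 to 492 CPM in the knockout (0.008, SE 0.09). Scaling by library size alone put Acly below WT at -0.07, with no overlap between the groups on that scale. WT replicate 2 held the lowest value for 11 of the 33 genes and the highest for 0, where it held the lowest for 18% and the highest for 17.0% of all tested genes.

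**Figure D4:**
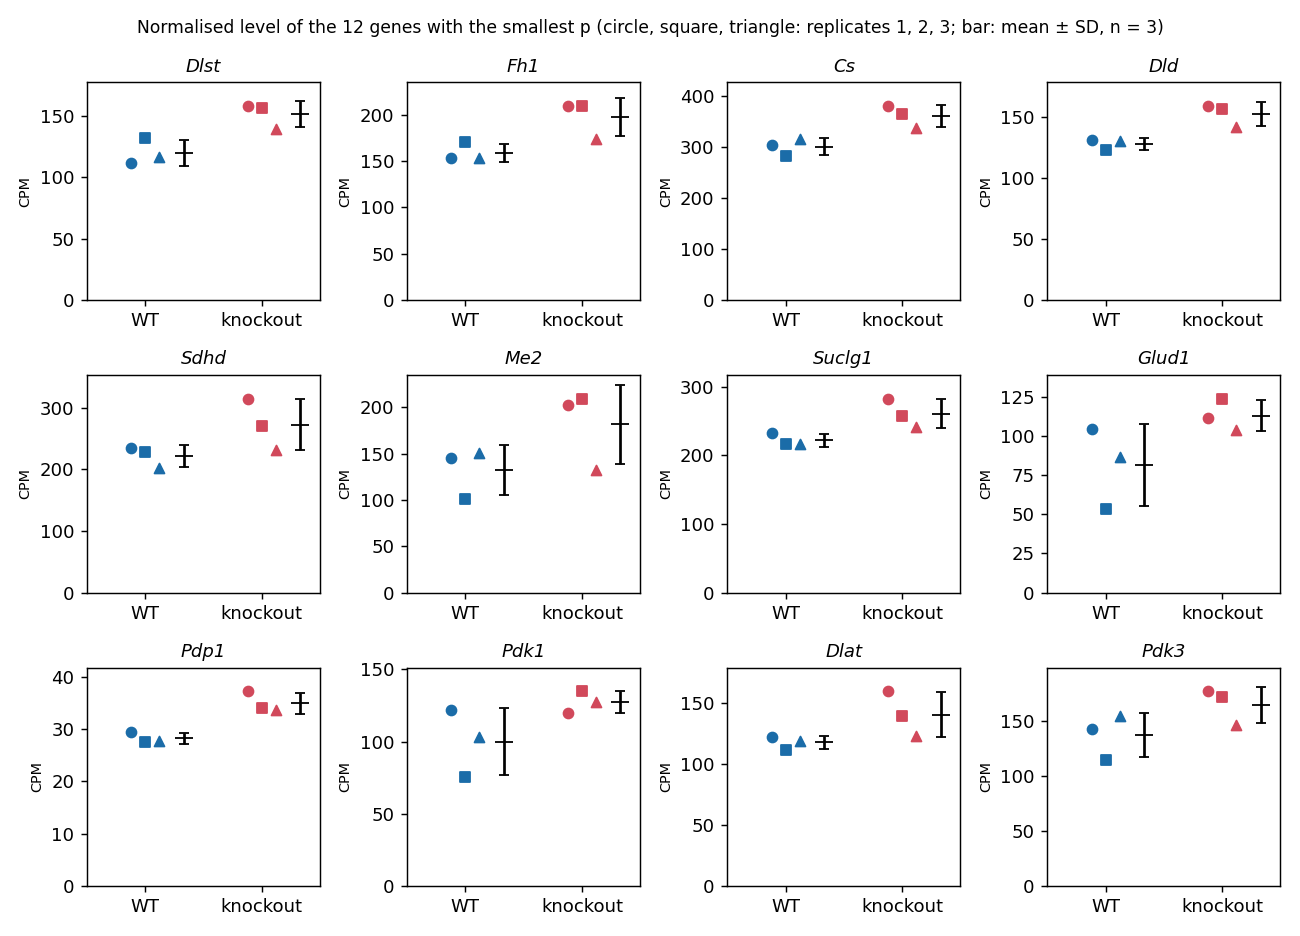
TMM-normalised CPM in each library for the 12 genes with the smallest p, from 0, with the mean ± SD (n = 3) beside the points. Knockout replicate 3 is the lowest knockout library in 11 of the 12 panels, Pdk1 being the exception.

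Ratios of 2 genes within a library do not depend on how libraries are scaled, and 16 pairs of paralogs, subunits and connected enzymes were compared. For 5 pairs the log2 ratios did not overlap between groups. Each had an exact two-sided permutation p of 0.1, the smallest that 3 against 3 libraries allow, and an adjusted p of 0.32 over the 16 pairs. The share of other gene pairs without overlap was not computed. Ogdh over Dlst, Cs over Acly and Aco1 over Fh1 each join a gene already without overlap to one close to WT. The log2 fold changes of Ogdh, Acly and Aco1 were 0.057, 0.008 and 0.051. These ratios thus largely restate the gaps of Dlst, Cs and Fh1. Suclg2 over Sucla2 was 0.74, 0.84 and 0.95 in WT and 0.65, 0.365 and 0.66 in the knockout, so the GTP-forming subunit was lower relative to the ATP-forming one in every knockout library. On the FPKM scale this ratio was 1.39 ± 0.116 in WT and 1.14 ± 0.124 in the knockout (SD, n = 3). Ogdh over Dlst, the first and core enzymes of 1 complex, was 1.90, 1.79 and 2.01 in WT and 1.68, 1.56 and 1.60 in the knockout.

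The other pairs without overlap differed by a similar amount. Sdhc over Sdhd had a mean log2 ratio of -0.14 ± 0.10 in WT and -0.36 ± 0.08 in the knockout (SD, n = 3). Cs over Acly, synthesis of citrate against its cleavage, had -0.66 ± 0.10 and -0.40 ± 0.025, and Aco1 over Fh1 had -1.21 ± 0.06 and -1.47 ± 0.105. The ratio of Pdk2 to Pdk3 had the largest mean difference, -0.59, from -1.39, -1.55 and -1.50 in WT to -2.62, -2.09 and -1.51 in the knockout. Its groups overlapped through knockout replicate 3 (exact permutation p = 0.2). Dlat over Pdhb differed by 0.16 with overlapping groups (exact permutation p = 0.3, adjusted p = 0.6). Mpc1 over Mpc2, Got1 over Got2, Mdh1 over Mdh2 and Pdha1 over Pdhb differed by 0.11, -0.02, -0.09 and -0.07, with exact permutation p of 0.5 to 0.7.

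**Figure D5:**
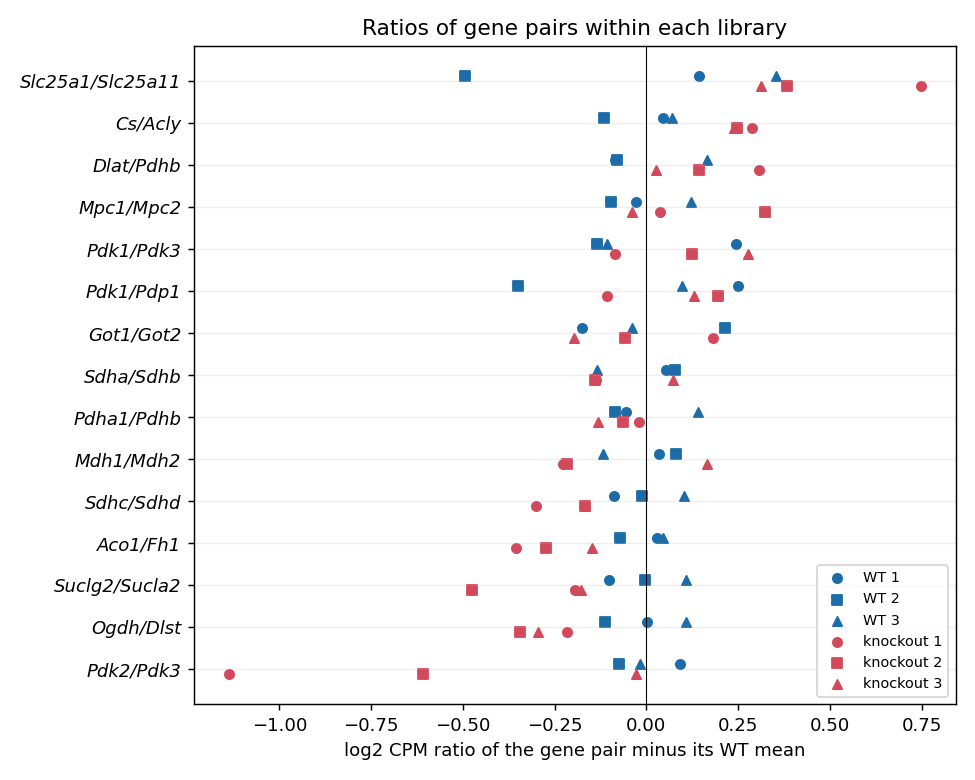
Log2 CPM ratio of each gene pair in each library minus the pair's WT mean, with WT in blue and knockout in red, for 15 of the 16 pairs (Me1 over Me2 is left out because of its few counts). The pairs without overlap are Cs over Acly on the right and Sdhc over Sdhd, Aco1 over Fh1, Suclg2 over Sucla2 and Ogdh over Dlst on the left.

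Of the 51 other genes of the pathway that were listed, 49 were in the table and 46 were tested. Of these, 30 of 46 lay above WT, against 49.5% of all tested genes. Their median was 0.12 on the log2 scale, against -0.003 for all tested genes. By edgeR and by DESeq2, 0 were called, where 0.00777% and 1.35% of all genes in those tests were. At an unadjusted p under 0.05 edgeR had 3 above and 1 below, where 7.24% of tested genes lay above and 6.15% below. The 3 above were Slc16a1, a lactate and pyruvate transporter (0.54, SE 0.16), Ldha (0.49, SE 0.15) and the amino acid transporter Slc38a2 (0.23, SE 0.10). On the lower side Ldhb (-0.64, SE 0.19), D2hgdh (-0.28, SE 0.13) and Acss2 (-0.415, SE 0.20) had the smallest p. The lactate dehydrogenase subunits thus lay on opposite sides: Ldha measured 1159, 1146 and 1234 CPM in WT and 2025, 1692 and 1240.0 CPM in the knockout, and Ldhb 146, 117.5 and 91.1 CPM in WT and 80.2, 60.5 and 87.3 CPM in the knockout. Without knockout replicate 3 edgeR called Ldha above WT (log2 fold change 0.66, adjusted p = 0.038). Over all genes, that fit called 30 higher and 14 lower.

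The isocitrate dehydrogenases were described beside the enzymes around them in the cycle. Log2 fold changes were 0.22 (SE 0.11) for Idh2, 0.25 (SE 0.12) for Idh3a, 0.19 (SE 0.11) for Idh3g and -0.03 (SE 0.10) for Idh3b. Idh1 stood at 0.35 (SE 0.23), and at -0.03 without knockout replicate 2.

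Promoter sequences of 30 of the 33 genes were found in the RefSeq table (build GRCm38.p6), which holds 250 bases before and 50 after each start, and 1 promoter per gene was searched on both strands. Sdhc, Me2 and Pdp1 were not searched. The letters were CCAAT (the CCAAT box), TGCGCA (a short form of the NRF1 motif), AAGGTCA (an estrogen-related receptor element) and CACGTG (an E-box), with the full NRF1 core searched by its fixed letters. None of them contains another. CCAAT was present in 18 of 30 promoters, or 60%, against 39.4% of the 10332 tested genes with an entry and 37.4% of all promoters in the table. TGCGCA was in 7 (23.3%, against 14.2% of tested genes), CACGTG in 3 (10%, against 10.1%), AAGGTCA in 2 (6.67%, against 3.15%) and the full NRF1 core in 0 (against 2.06%). Among the 6 searched genes whose groups did not overlap, 3 held CCAAT, and these matches describe letters, not bound sites.

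The 250 bases that end just before the start are shown for Dlst, Cs and Fh1, the genes with the smallest p, and for Pdk2, the gene with the lowest log2 fold change. Capitals mark the searched letters, with ATTGG being CCAAT on the other strand. Cs holds CCAAT at 116 to 112 and at 55 to 51 bases before the start, Fh1 at 70 to 66 and at 19 to 15, and Pdk2 at 105 to 101, 73 to 69 and 42 to 38 with CACGTG at 126 to 121. Dlst holds none of the searched letters.
Dlst (GRCm38.p6, chr12:85110583-85110832, plus strand): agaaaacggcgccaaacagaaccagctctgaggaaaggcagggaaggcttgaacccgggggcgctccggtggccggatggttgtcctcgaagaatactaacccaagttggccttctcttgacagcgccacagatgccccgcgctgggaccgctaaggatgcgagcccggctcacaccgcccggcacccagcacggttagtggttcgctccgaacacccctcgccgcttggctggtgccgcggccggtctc
Cs (GRCm38.p6, chr10:128337477-128337726, plus strand): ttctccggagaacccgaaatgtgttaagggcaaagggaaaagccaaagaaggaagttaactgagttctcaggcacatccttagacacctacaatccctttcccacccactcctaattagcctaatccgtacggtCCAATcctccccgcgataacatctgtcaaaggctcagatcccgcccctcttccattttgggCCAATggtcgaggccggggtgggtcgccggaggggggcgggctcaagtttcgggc
Fh1 (GRCm38.p6, chr1:175625636-175625885, minus strand): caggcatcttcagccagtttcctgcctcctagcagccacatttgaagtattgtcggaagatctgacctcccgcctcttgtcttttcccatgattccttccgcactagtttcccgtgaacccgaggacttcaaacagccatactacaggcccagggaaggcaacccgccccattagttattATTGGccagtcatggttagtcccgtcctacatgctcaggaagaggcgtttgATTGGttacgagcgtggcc
Pdk2 (GRCm38.p6, chr11:95041372-95041621, minus strand): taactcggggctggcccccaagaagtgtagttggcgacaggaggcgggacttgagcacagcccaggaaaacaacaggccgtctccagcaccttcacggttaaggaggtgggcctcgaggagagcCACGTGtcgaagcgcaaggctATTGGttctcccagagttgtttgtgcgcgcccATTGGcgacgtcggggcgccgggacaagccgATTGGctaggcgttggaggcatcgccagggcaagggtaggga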

How the data were processed

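RNA was sequenced from LSK cells in 3 WT and 3 HDAC6 knockout samples. Tools listed in the submitters' processing notes are featureCounts 2.0.3, HISAT2 2.2.1, DESeq2 and SAMtools 1.13, with the build GRCm39. The annotation and the strand setting are not stated there. For each gene and library the authors deposited FPKM values and estimated counts, per the file headers. Of these counts, 19.6% to 20.9% per library were not whole, and all were rounded. Cs, Ogdh, Acly, Pdha1 and Slc25a11 held such counts in at least 1 library, so their levels may include reads shared with other genes. Libraries differed by more than sampling noise (chi-square per degree of freedom 25.8 to 91.4), and each counted as 1 sample. A count of 0 would allow 0.106 to 0.114 CPM, for counting error only.

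Knockout was compared with WT by edgeR 4.0.16 in R 4.3.3 (filterByExpr with minimum count 10, TMM, robust glmQLFit with the legacy option, glmQLFTest), with Benjamini-Hochberg adjustment over 12875 genes at 0.05. Gene ratios within libraries were compared by exact permutation. Standard errors are the log2 fold change over the root of F. Values in every library are given for Hdac6, the 10 enzyme genes with the smallest p, those without overlap, the paralog families and the genes with the highest and lowest FPKM; of other pathway genes, the isocitrate dehydrogenases and the 3 with the smallest p per direction are named, and 1 further gene of that rule is not reported here. The genes and lists were chosen with earlier results of these data known. Alternatives were RLE, upper-quartile and no scaling factors, no filter, a filter of 5 CPM in 3 libraries, DESeq2 1.42.0, limma 3.58.1 (voom with sample weights, and log2(FPKM + 1)), the newer edgeR option, non-robust dispersion, a replicate block, a stricter adjusted p (0.01), a minimum absolute log2 difference of 1 and each library left out. Counts at an unadjusted p and non-overlap under other scalings were added after the data were seen. The tests were checked on simulated counts. There edgeR recovered 22.9% of 1.5-fold and 53.1% of 2-fold changes, and 8.71% of its calls were false. DESeq2 recovered 33.4% and 65.9%, and 22.9% of its calls were false. The largest fold among the 33 enzyme genes was 1.43, for Me1. The lack of calls therefore does not show that these genes were unchanged.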

Additional observations from a re-analysis of the deposited data

How the results depend on the processing

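Under every alternative listed, 0 enzyme genes were called. The number above WT stayed within 24 to 29, and their median between 0.09 (without knockout replicate 1) and 0.30 (without knockout replicate 3). Over all genes, DESeq2 called 120 higher and 61 lower where edgeR called 0 and 1, and leaving out 1 library gave 0 to 30 higher and 1 to 14 lower, the largest counts without knockout replicate 3. The enzyme genes above WT at an unadjusted p under 0.05, 8 by edgeR, were 3 with upper-quartile normalization (where 5.3% of all tested genes were), 2 with library size alone (4.53%), 5 with the stricter filter (7.72%), 14 with limma-voom (10.8%), 2 with limma on log2(FPKM + 1) (4.92%) and 4 with the replicate block (5.9%). Without 1 library they were 1 to 13, and those below WT 0 to 1. The other pathway genes called higher were 0 to 1 when 1 library was left out. Above WT, Cs, Dlst, Dld, Suclg1 and Pdp1 kept their gap on every scale tried. Fh1 had a gap only with TMM and RLE, and Dlat only with TMM. Of all tested genes, 6.09% lay above WT without overlap on the FPKM scale and 5.94% with library size alone. Below WT, 1 enzyme gene had no overlap on the FPKM scale (where 12.2% of all tested genes had none) and 1 with library size alone (13%), Acly in both. The median of all tested genes, -0.003, was -0.055 with upper-quartile normalization, -0.078 with library size alone, 0.016 without a filter, 0.007 with DESeq2, -0.052 with limma on log2(FPKM + 1) and -0.019 to 0.008 without 1 library. The cause was not tested.

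Genes close to 0 changed sign, as did the more variable Me1, Pcx and Idh1. Under upper-quartile normalization, library size alone and log2(FPKM + 1), in that order, Aco1 was at -0.001, -0.024 and -0.022, Acly at -0.044, -0.067 and -0.065 and Pdha1 at -0.035, -0.058 and -0.055. Ogdh was at -0.02 with library size alone and at -0.02 with log2(FPKM + 1), Acly at -0.003 with the stricter filter and Me1 at -0.092 with limma-voom. Leaving out 1 library gave -0.013 to 0.12 for Ogdh, -0.14 to 0.02 for Suclg2, -0.49 to 0.003 for Pcx, -0.35 to 0.88 for Me1, -0.015 to 0.047 for Acly, -0.029 to 0.074 for Pdha1, -0.131 to 0.052 for Mpc2, -0.031 to 0.52 for Idh1 and -0.087 to 0.027 for Idh3b. No pairing by replicate number was seen. Same-numbered libraries had correlations of their deviations from the group means of 0.03, -0.04 and -0.12, and the other pairs of -0.07 to 0.11. With 3 libraries per group, these values cannot exclude a paired design. The replicate block left 1 gene called, Hdac6, with a median of 0.18 for the enzyme genes. Me1 had 12 to 53 counts per library, and its standard error was 0.77.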

Other observations

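Low values in WT replicate 2 were also seen in pathway genes outside the 33 enzymes. These 3 were chosen after their values were seen. Slc1a5, a glutamine transporter, measured 269, 157 and 268 CPM in WT replicates 1 to 3 and 256 to 297 CPM in the knockout. Sdhaf1, an assembly factor of succinate dehydrogenase, measured 21.15, 8.38 and 17.45 CPM in WT and 19.18 to 27.98 CPM in the knockout. Gpt2, a mitochondrial alanine aminotransferase, measured 12.1, 5.06 and 11.4 CPM in WT and 9.83 to 15.75 CPM in the knockout. The other WT libraries lay inside the knockout range for Slc1a5 and Gpt2, while Sdhaf1 in WT replicate 3 lay below it.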
